A study of Homo sapiens with 6 samples.

Results

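Transcripts of 38 genes of glycolysis and of the response to low oxygen were compared between REH cells with reduced STAT3 and control cells. The genes were taken by symbol from a table of 26364 genes, where all 38 were found, and comprise 17 glycolytic enzymes, 7 transporters and regulators of glycolytic flux, 12 other genes induced by hypoxia and the 2 alpha subunits of hypoxia-inducible factor. REH is an established human line grown from B-cell precursor acute lymphoblastic leukaemia. The study held 6 libraries in 2 groups: 3 from cells transduced with a lentiviral scramble hairpin and 3 from cells transduced with a lentiviral hairpin against STAT3 (shSTAT3), each from an independent experiment. Puromycin selection of both groups took 3 days, dead cells were then removed, and RNA was extracted. The labels name neither a low-oxygen treatment nor the hairpin sequences.

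For each gene, the authors' deposited table gives 1 mean normalized count for all libraries together, the log2 fold change between groups, and its p-value, raw and adjusted. It holds no value per library, so each result below is a difference between groups with its error. Negative fold changes were read as lower in shSTAT3 because STAT3 itself is at −1.75 in the authors' deposited table. Its fall is therefore no separate check of the labels. The fold changes are shrunken, that is pulled toward 0, and the 95% intervals given here were worked out from fold change and p. The libraries differed little in depth, with size factors of 0.935 to 1.13, and the means summed to 11485068 normalized counts. Of 14 markers of B-cell precursors, 13 were tested, that is given an adjusted p, and VPREB1 had no reads. Of those 13, 6 fell (46.2%) and 2 rose at an adjusted p under 0.05, where 23.2% of all tested genes fell and 21.3% rose. Of 10 T-cell markers, CD3D, CD3G, CD5 and CD7 had no reads and 3 were tested, of which the authors' deposited table has TRAT1 (mean 14.4) called 3.04-fold higher and LCK (mean 202) not called, at a log2 fold change of 0.06. Of 12 fibroblast and epithelial markers 5 had no reads, and all 3 tested fell. The authors' deposited table puts VIM (mean 10484) at 53.7%, COL1A1 (mean 51.3) at 59.6% and PDGFRB (mean 806) at 82.7% of scramble. Vimentin and LCK are also made by lymphoid cells. The part of other cells in the results below was not tested.

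Glycolysis breaks glucose down to pyruvate in the cytosol and yields ATP without oxygen, and lactate dehydrogenase then turns pyruvate into lactate and restores NAD+. When oxygen is short, prolyl hydroxylases stop marking the HIF alpha proteins for destruction through VHL. The stabilised proteins pair with ARNT and switch on most glycolytic enzymes, the glucose transporter SLC2A1, and genes of mitophagy, vessel growth and collagen modification. Proliferating leukaemia cells run glycolysis in the presence of oxygen as well.

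Most of the changed genes of this set were lower in shSTAT3 cells. Of 38 genes, 30 had an adjusted p, of which 13 fell, 1 rose and 16 did not pass an adjusted p of 0.05. Among all 12061 genes with an adjusted p, 44.5% passed, 23.2% as lower and 21.3% as higher. The median log2 fold change of the 30 genes was −0.37, against 0.0027 for all tested genes. For another 6 genes the authors' deposited table lists a fold change without a p-value, and EGLN3 and CA9 had no reads in any library. At a mean of at least 10, 10 of 36 genes were at least 1.5-fold lower with or without a p, where 11.0% of all such genes were. None of the 36 was at least 1.5-fold higher, where 907 of all 12098 such genes were, so few would be looked for among 36. These genes were proposed with earlier results of the same table known, so their direction is a description.

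**Figure D1:**
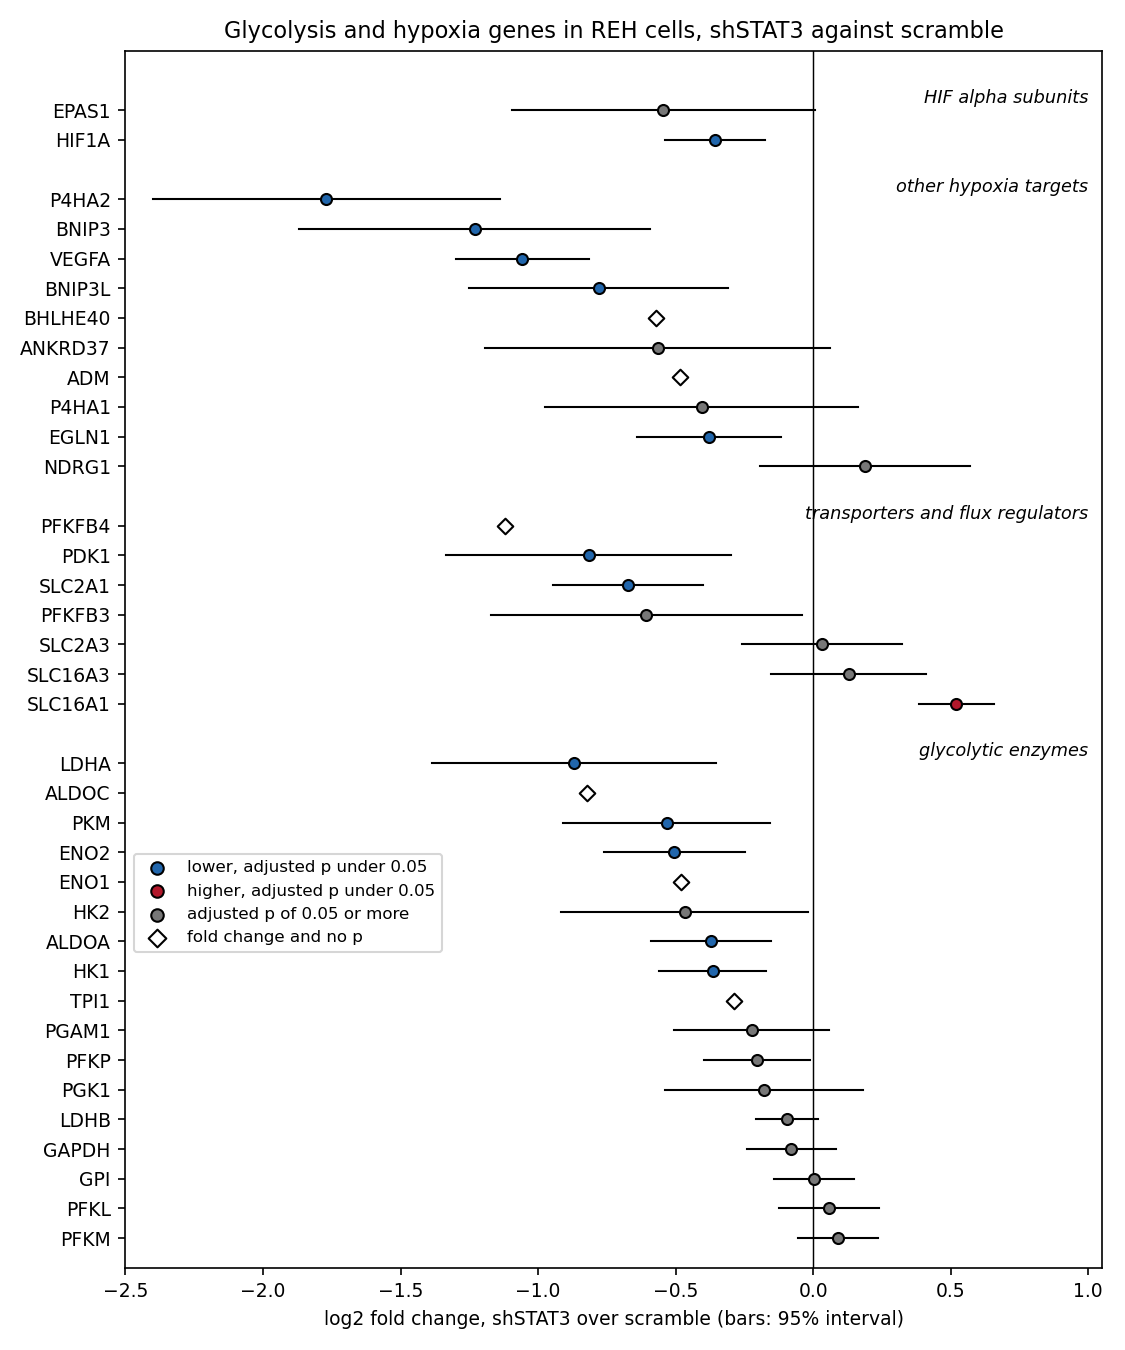
Log2 fold change of shSTAT3 over scramble (x axis) for the 36 genes with reads, by role, with bars for 95% intervals. Blue points fell, the red point rose, grey points did not pass an adjusted p of 0.05, and open diamonds have no p and no interval. The farthest point to the left is P4HA2 at −1.77 and the farthest to the right is SLC16A1 at 0.52.

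The first steps of glycolysis gave small and mixed differences. HK1, which phosphorylates glucose in most tissues, fell, and the authors' deposited table puts it at 77.6% of scramble (log2 fold change −0.37, 95% interval −0.56 to −0.17, adjusted p = 0.000955). HK2, the hypoxia-induced hexokinase, had a larger fold change and did not pass (−0.47, −0.92 to −0.02, adjusted p = 0.0849 in the authors' deposited table). The interval of HK2 was the wider and contained that of HK1. GPI, which makes fructose 6-phosphate, was at 0.00 in the authors' deposited table, with an interval of −0.14 to 0.15.

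The 3 phosphofructokinase subunits, which commit fructose 6-phosphate to glycolysis, were all expressed and none passed. In the authors' deposited table PFKL was at 0.06, PFKM at 0.09 and PFKP, the platelet form, at −0.20 (adjusted p = 0.642, 0.323 and 0.0789). The intervals of PFKL and PFKM reached from −0.12 to 0.24 and from −0.05 to 0.24, and a fall as large as that of HK1 lay outside both.

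The enzymes that split and oxidise the sugar also differed among themselves. ALDOA, the main aldolase, fell by a like amount, with 77.3% of scramble left (log2 fold change −0.37, interval −0.59 to −0.16, adjusted p = 0.00269 in the authors' deposited table). ALDOC, the brain aldolase, was at −0.82 and TPI1, which interconverts the triose phosphates, at −0.29, both with no p in the authors' deposited table. GAPDH, the most abundant of the 38 transcripts, was at −0.08 (interval −0.24 to 0.08, adjusted p = 0.457 in the authors' deposited table). PGK1 and PGAM1, the kinase and the mutase of the next steps, were at −0.18 and −0.22 and did not pass (adjusted p = 0.448 and 0.204 in the authors' deposited table).

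At the end of the pathway more genes were lower. ENO2, the neuronal enolase, and PKM, pyruvate kinase, fell, and the authors' deposited table puts them at 70.5% and 69.1% of scramble (log2 fold changes −0.50 and −0.53, adjusted p = 0.000502 and 0.0151). ENO1, the main enolase, was at −0.48 with no p in the authors' deposited table. LDHA, the lactate dehydrogenase subunit that favours lactate production, had the largest fall of the enzymes that have a p, to 54.8% of scramble (−0.87, interval −1.38 to −0.35, adjusted p = 0.00336 in the authors' deposited table). LDHB, the other subunit, was at −0.09 with an interval of −0.21 to 0.02 and did not pass (adjusted p = 0.174 in the authors' deposited table). The intervals of LDHA and LDHB do not overlap. Both genes were measured in the same libraries, and their difference was not tested.

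Divided by exon length, the mean count over all 6 libraries gave GAPDH 15325 normalized counts per kilobase, which ranked 5 among 11387 tested genes of known length. LDHB followed at 3841, ENO1 at 3349, TPI1 at 1558, PKM at 1332, ALDOA at 1274, PGK1 at 1264 and LDHA at 1135 normalized counts per kilobase. LDHB thus made up 77.2% and LDHA 22.8% of the length-scaled lactate dehydrogenase transcripts. ENO1 held 97.0% of the summed level of ENO1 and ENO2, and ALDOA 89.0% of that of ALDOA and ALDOC. The hexokinases HK1 and HK2 were split more evenly, with 58.2% HK2, and phosphofructokinase into 45.4% PFKP, 30% PFKL and 24.6% PFKM. ALDOC and ENO2 stood at 158 and 105 normalized counts per kilobase. Exon lengths are those of GENCODE 29, merged over transcripts, so a gene with long rare exons is set too low.

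**Figure D2:**
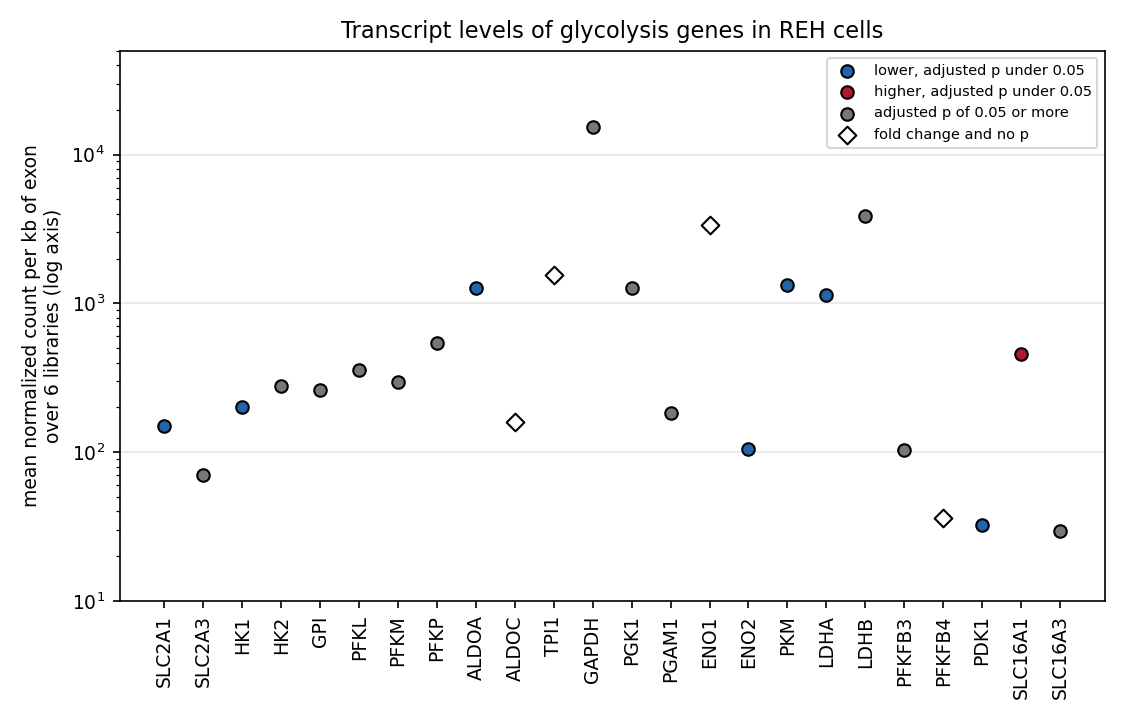
Mean normalized count per kilobase of exon over the 6 libraries (y axis, log scale) for glucose transporters, glycolytic enzymes, flux regulators and lactate transporters (x axis), coloured by the comparison of shSTAT3 with scramble. GAPDH is highest at 15325 and SLC16A3 lowest at 29.2.

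Promoter windows are shown for LDHA and LDHB, the subunit pair whose fold changes lay apart, for BNIP3, a mitophagy gene that fell, and for ALDOC, which has no p. Each runs from 250 bases before to 50 bases after the RefSeq start (GRCh38.p14), 5′ to 3′ on the strand of the gene. LDHA is at chr11:18394313-18394612 on the plus strand, LDHB at chr12:21657793-21658092, BNIP3 at chr10:131981874-131982173 and ALDOC at chr17:28576846-28577145, these 3 on the minus strand. Capitals mark ACGTG and GCGTG, the cores of the hypoxia response element bound by HIF, on either strand, so that CACGTG is a match on both.
LDHA: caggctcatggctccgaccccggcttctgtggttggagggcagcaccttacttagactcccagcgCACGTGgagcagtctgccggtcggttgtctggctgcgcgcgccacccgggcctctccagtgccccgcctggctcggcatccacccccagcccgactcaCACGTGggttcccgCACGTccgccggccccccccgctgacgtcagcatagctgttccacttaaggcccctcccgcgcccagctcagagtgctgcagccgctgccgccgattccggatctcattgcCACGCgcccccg
LDHB: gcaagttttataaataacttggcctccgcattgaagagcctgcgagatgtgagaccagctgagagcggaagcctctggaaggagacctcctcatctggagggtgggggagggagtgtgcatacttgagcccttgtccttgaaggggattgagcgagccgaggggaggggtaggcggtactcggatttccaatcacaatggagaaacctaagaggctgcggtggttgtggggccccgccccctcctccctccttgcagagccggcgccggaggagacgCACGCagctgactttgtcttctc
BNIP3: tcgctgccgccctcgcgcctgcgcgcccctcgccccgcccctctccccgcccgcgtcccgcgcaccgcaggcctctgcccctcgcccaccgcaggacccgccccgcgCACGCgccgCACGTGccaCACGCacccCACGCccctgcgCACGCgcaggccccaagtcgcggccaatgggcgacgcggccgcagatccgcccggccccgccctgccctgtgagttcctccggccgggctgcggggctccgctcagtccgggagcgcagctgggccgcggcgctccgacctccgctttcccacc
ALDOC: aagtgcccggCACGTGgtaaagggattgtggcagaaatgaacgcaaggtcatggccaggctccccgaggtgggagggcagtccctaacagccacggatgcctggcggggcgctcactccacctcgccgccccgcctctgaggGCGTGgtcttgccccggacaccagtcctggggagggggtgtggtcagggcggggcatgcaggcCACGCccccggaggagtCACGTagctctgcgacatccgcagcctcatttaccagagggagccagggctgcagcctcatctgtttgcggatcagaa

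The LDHA window held ACGTG in 3 places and the ALDOC window in 2, the BNIP3 window in 1 beside 4 places with GCGTG, and the LDHB window held 1 GCGTG only. Windows were found for 33 of the 38 genes and not for VEGFA, BNIP3L, SLC16A1, NDRG1 and SLC2A3. For genes with several starts the first listed window was used. ACGTG stood in 14 of these 33 windows (42.4%), against 27.1% of 9059 windows of tested genes and 21.6% of 27305 windows in all. GCGTG stood in 45.5%, against 51.5% and 36.3%. ACGTG occurred in 5 of 11 windows of genes that fell and in 6 of 14 windows of tested genes that did not, shares of 45.5% and 42.9%. GCGTG stood in 10 of 14 windows (71.4%) of members with no p or with a large error, as defined further on, and in 5 of 17 (29.4%) of the other members with reads. ACGTG stood in 50% and 35.3% of the same windows. These splits were looked at with the values known, and no difference in motif share was tested. TTCNNNGAA, the palindrome bound by STAT dimers, stood in the window of PDK1 alone among the 33, against 6.36% of windows of tested genes. A match describes letters in this window only and no binding was measured.

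Of the transporters and flux regulators, a glucose transporter and a pyruvate dehydrogenase kinase fell and a lactate carrier rose. SLC2A1, the widespread glucose transporter GLUT1 on chromosome 1 from 42925375 to 42959176, fell, with 62.7% of scramble left (log2 fold change −0.67, interval −0.94 to −0.40, adjusted p = 8.13e-06 in the authors' deposited table). SLC2A3, the high-affinity transporter GLUT3, was at 0.03 (interval −0.26 to 0.32, adjusted p = 0.887 in the authors' deposited table), and its interval does not overlap that of SLC2A1. PDK1, the kinase that shuts pyruvate dehydrogenase and so keeps pyruvate out of mitochondria, fell to 56.8% in the authors' deposited table (−0.82, interval −1.33 to −0.30, adjusted p = 0.00626).

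PFKFB3 and PFKFB4 make fructose 2,6-bisphosphate, the activator of phosphofructokinase. PFKFB3 did not pass at −0.61 (interval −1.17 to −0.04, adjusted p = 0.0748) and PFKFB4 had no p at −1.12, both in the authors' deposited table. SLC16A1, the lactate and pyruvate carrier MCT1, was the member that rose, to 1.43-fold of scramble in the authors' deposited table (0.52, interval 0.38 to 0.66, adjusted p = 1.53e-12). SLC16A3, the hypoxia-induced exporter MCT4, was at 0.13 (adjusted p = 0.492 in the authors' deposited table). Per kilobase of exon, SLC16A1 stood at 453 and SLC16A3 at 29.2 normalized counts, a ratio of 15.5.

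The hypoxia-induced genes outside glycolysis held the largest falls of the set. P4HA2, a collagen prolyl hydroxylase on chromosome 5 from 132191838 to 132295315, fell to 29.3% of scramble (log2 fold change −1.77, interval −2.40 to −1.14, adjusted p = 3.28e-07 in the authors' deposited table). Its mean was only 27.3 normalized counts, and per kilobase it stood at 3.21 against 185 for its paralog P4HA1. P4HA1 was at −0.41 with an interval of −0.97 to 0.16 and did not pass (adjusted p = 0.259 in the authors' deposited table).

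VEGFA, the vessel growth factor on chromosome 6 from 43770184 to 43786487, fell to 48% with the smallest p of the set (−1.06, interval −1.30 to −0.82, adjusted p = 3e-16 in the authors' deposited table). BNIP3 and BNIP3L, outer-membrane receptors that direct mitochondria to autophagy, both fell, and the authors' deposited table puts BNIP3 at 42.6% and BNIP3L at 58.3% of scramble (−1.23 and −0.78, adjusted p = 0.000672 and 0.00399). Their intervals overlap broadly, from −1.87 to −0.59 and from −1.25 to −0.31. EGLN1, the main HIF prolyl hydroxylase and itself a HIF target, fell to 77.0% in the authors' deposited table (−0.38, adjusted p = 0.0131).

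The remaining hypoxia targets gave no call. ANKRD37, a small ankyrin-repeat gene induced by HIF, was at −0.57 with an interval of −1.19 to 0.06 (adjusted p = 0.142 in the authors' deposited table). NDRG1, a hypoxia-induced stress gene, was the member of this group on the other side of 0, at 0.19 (interval −0.19 to 0.57, adjusted p = 0.454 in the authors' deposited table). ADM, the vasodilator peptide adrenomedullin, and BHLHE40, a circadian and hypoxia-induced repressor, were at −0.49 and −0.57 with no p in the authors' deposited table. CA9, carbonic anhydrase IX, and EGLN3, a strongly hypoxia-induced hydroxylase, had no reads in any of the 6 libraries.

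Of the HIF alpha subunits, HIF1A fell to 78.1% of scramble (log2 fold change −0.36, interval −0.54 to −0.17, adjusted p = 0.000523 in the authors' deposited table). EPAS1, which encodes HIF-2 alpha, did not pass at −0.54 (interval −1.09 to 0.01, adjusted p = 0.103 in the authors' deposited table). HIF1A made up 99.1% of the length-scaled level of the pair, with 574 against 5.30 normalized counts per kilobase. HIF activity is set largely by protein stability, which transcript counts do not measure.

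Their partners and controllers were mixed. Of 15 listed genes of oxygen sensing and HIF function, 11 were tested, of which 1 fell and 4 rose (median log2 fold change 0.09), where 23.2% of all tested genes fell and 21.3% rose. ARNT, the partner of both alpha subunits, was the gene that fell, to 81.8% (log2 fold change −0.29, adjusted p = 0.00483 in the authors' deposited table). HIF1AN, the asparaginyl hydroxylase that blocks HIF transactivation, and EP300, the coactivator whose binding it blocks, rose, by 1.55-fold (adjusted p = 7e-16) and 1.40-fold (adjusted p = 5.52e-10) in the authors' deposited table. VHL, which takes hydroxylated HIF to the proteasome, and the prolyl hydroxylase EGLN2 were at 0.09 and −0.14 (adjusted p = 0.346 and 0.73 in the authors' deposited table). MYC, which drives many of the same glycolytic genes, fell slightly (log2 fold change −0.28, adjusted p = 0.0329 in the authors' deposited table).

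Set side by side, 5 of 14 tested glycolytic enzymes fell (35.7%) and 5 of 8 tested other hypoxia targets fell (62.5%), against 23.2% of all tested genes. None rose in either group, against 21.3% of all tested genes. The median log2 fold change was −0.21 for the enzymes and −0.67 for the other targets. With genes that have no p included, at a mean of at least 10, the medians were −0.29 over 17 enzymes and −0.57 over 10 other targets. In that count 14 of 17 enzymes and 9 of 10 other targets had a negative fold change, where 6020 of all 12098 such genes had. Asking in addition for at least a 1.5-fold fall left LDHA as the 1 enzyme called and 4 of the other targets, P4HA2, BNIP3, VEGFA and BNIP3L. Of all 12061 tested genes, 2091 were called at 1.5-fold or more in either direction. The groups overlapped: LDHA lay below BNIP3L and EGLN1, and NDRG1 lay above every enzyme. The difference between the groups was not tested.

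Several of these genes carried much more error than genes of the same abundance. Each fold change's standard error was divided by the median of up to 501 tested genes of nearest mean. At a given mean and depth, it grows with the spread between libraries of a group that the authors' model gave the gene. At least 2 times the median was reached by 9 of 30 tested members (30%), against 0.531% of all tested genes, so that members made up 9 of 64 such genes. They were LDHA (3.82 times), PKM (2.80), HK2 (2.80), PFKFB3 (2.77), BNIP3L (2.75), BNIP3 (2.74), P4HA1 (2.71), PGK1 (2.65) and PDK1 (2.34). LDHA had the highest ratio of all 12061 tested genes. The limit of 2 was chosen after the values were seen. PDK1 lay nearest above it, and the next member was ALDOA at 1.56.

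All 9 of these genes had a negative fold change, of which 5 fell and 4 did not pass, namely HK2, PGK1, PFKFB3 and P4HA1. Among the other 55 tested genes with such errors 56.4% had a negative fold change. The remaining 21 tested members had ratios from 0.842 to 1.56, and VEGFA, SLC2A1, P4HA2, HK1 and HIF1A were among those that fell with ratios of 1.38 or less. LDHB, at 0.842, had the lowest ratio of the tested members.

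**Figure D3:**
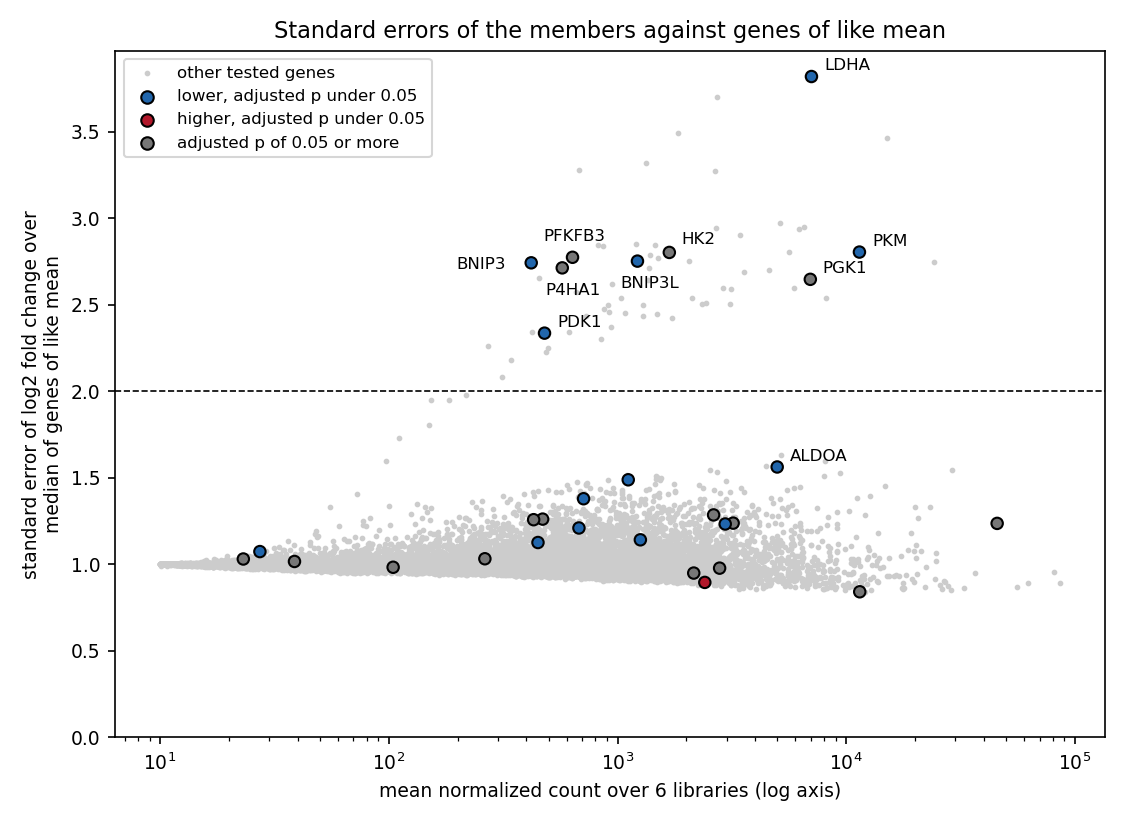
Standard error of the log2 fold change divided by the median of genes of like mean (y axis) against the mean normalized count over 6 libraries (x axis, log scale), for 30 members over all 12061 tested genes in light grey. The dashed line is at 2, and the 9 members above it run from PDK1 at 2.34 to LDHA at 3.82.

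A missing p was as unevenly spread. The enzymes ALDOC, ENO1 and TPI1, the regulator PFKFB4 and the targets BHLHE40 and ADM lacked one, which is 6 of the 36 members with a mean of at least 10, against 0.306% of all 12098 such genes (37 genes, of which 29 had a negative fold change). Their means in the authors' deposited table ran from 70.8 for ADM to 17672 for ENO1, so a low count was not what they shared. All 6 had negative fold changes, from −0.29 for TPI1 to −1.12 for PFKFB4. DESeq2 by default withholds the p of a gene when 1 library lies far from the fit, and whether that setting was used is not given in the sources used here. These 6 genes have no test, so neither a fall nor its absence was shown for them.

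Values per library could be recovered only where a mean was low enough to give back whole reads, which held for no member with reads. For 22 genes with no p and a mean under 6, 432 of 524 recovered reads (82.4%) lay in the same library, against 23.1% of the reads of genes with a p. That library was picked as the one with most reads of these 22 genes, so its high share for them follows in part from the choice. It was also the deepest library, with a size factor of 1.13, and held 23.9% of all recovered reads. No test compared the shares. The library carries no label here. Listed genes with every recovered read in it had negative fold changes, such as VLDLR (12 of 12 reads, log2 fold change −0.32 in the authors' deposited table). PFKFB2 (2 of 2 reads, −0.07) was another. With negative read as lower in shSTAT3, it is a scramble library, though which replicate is not known. Myeloid markers were among the genes with no p as well, with 5 of 16 listed (LYZ, S100A8, S100A9, FCER1G and ELANE). Of 86 recovered reads of 5 low myeloid markers, 56 lay in that library, most of them from TYROBP (26 of 29) and FCER1G (22 of 26). FCGR1A had 5 of 10 reads there, MRC1 2 of 7 and CD163 1 of 14. FCER1G, with no p, was itself among the genes by which that library was picked. The means of the 16 myeloid markers summed to 3666 normalized counts, of which MPO held 2330, and none was at 0. Of the 6 tested, CSF1R and CST3 fell (33.3%) and ITGAM rose, where 23.2% of all tested genes fell and 21.3% rose. The part of that library or of myeloid transcripts in the fold changes of the glycolysis and hypoxia genes was not tested.

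A second list of 39 hypoxia-induced genes, none of them among the 38, also held more falls than rises. The falls numbered 9 among 25 tested genes (36%) and the rises 0, against 23.2% and 21.3% of all tested genes, and the median log2 fold change was −0.29. In the authors' deposited table RRAGD, a GTPase of nutrient signalling, fell to 53.0% of scramble (adjusted p = 9.46e-17), CXCR4, the chemokine receptor for stromal CXCL12, to 66.9% (adjusted p = 1.4e-08) and NARF to 69.0% (adjusted p = 2.39e-08). In this list 5 of 25 genes had a standard error at least 2 times that of genes of like mean, against 0.531% of all tested genes. These were DDIT4 (3.49 times), an inhibitor of mTORC1, MIF (2.70), the histone demethylases KDM4B (2.64) and KDM3A (2.54), and ZNF292 (2.54), all without a call. A further 3, GBE1, AK4 and FAM162A, have no p, at −0.88, −0.92 and 0.16 in the authors' deposited table.

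Pathways that join glycolysis had medians near 0, and their counts stand against 23.2% of all tested genes lower and 21.3% higher. In the pentose phosphate pathway 3 of 13 tested genes fell (23.1%) and 2 rose (median −0.05). PRPS2, which makes phosphoribosyl pyrophosphate for nucleotides, fell to 51.1%, and TIGAR, a fructose bisphosphatase, and RPIA rose 1.43-fold and 1.34-fold, in the authors' deposited table. Of 14 tested genes for the entry of pyruvate into mitochondria 2 fell (14.3%) and 3 rose (median 0.01). PCK2, which makes phosphoenolpyruvate in mitochondria, fell to 48% and MPC2, a subunit of the pyruvate carrier, to 78.0%, while PDPR, a regulator of pyruvate dehydrogenase phosphatase, rose 1.68-fold in the authors' deposited table.

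Of 9 tested further glycolysis genes 3 fell (33.3%) and none rose (median 0.00), and the authors' deposited table puts the 3, PGM2, PGP and GPD1L, at 79.2%, 75.8% and 86.7% of scramble. GPD1L lost its call when genes of low mean entered the adjustment (adjusted p = 0.0679, Benjamini-Hochberg over the authors' DESeq2 p-values). In glycogen metabolism 4 of 12 fell (33.3%) and 1 rose (median −0.10). PYGL, the liver form of glycogen phosphorylase, fell to 49.3% and UGP2, which makes UDP-glucose, to 73.7%, while PYGB, the brain form, rose 1.41-fold in the authors' deposited table. No tested gene of these 4 lists reached a standard error of 2 times that of genes of like mean. Large errors were not confined to hypoxia and glycolysis genes. Among the cell type markers, MME (2.94 times) and MPO (2.51 times) had such errors, both without a call.

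**Figure D4:**
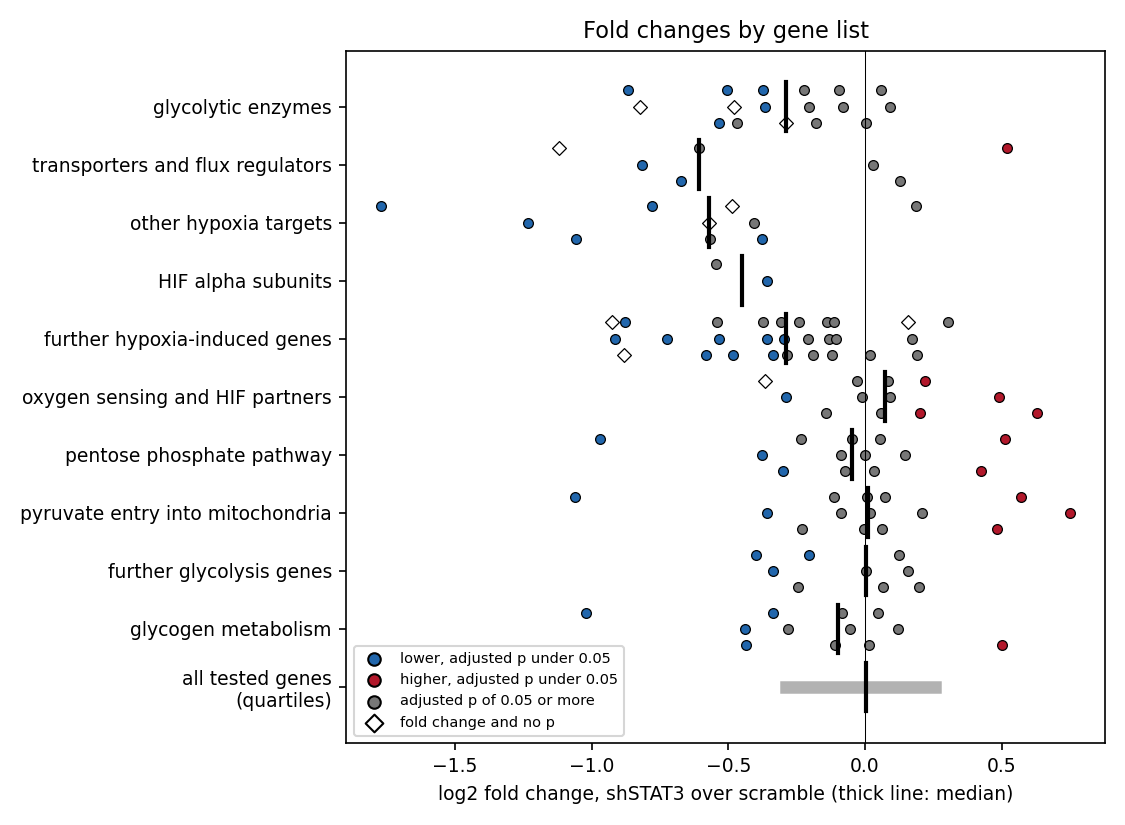
Log2 fold change of shSTAT3 over scramble (x axis) for genes with a mean of at least 10 in each list (y axis), with thick lines for medians and a grey bar for the quartiles of all tested genes. Medians lie at −0.29 for glycolytic enzymes and −0.57 for other hypoxia targets, and near 0 for the pentose phosphate, pyruvate and further glycolysis lists.

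Some counts may hold reads of other genes. GENCODE 29 names 62 pseudogenes of GAPDH, 39 of BNIP3, 13 of PGAM1, 6 of LDHA, 5 of PKM and 4 each of ENO1 and TPI1, and how shared reads were assigned is not given in the sources used here. Use of strand in counting is not given either, and exons of several members overlap a gene on the other strand. ANKRD37 (mean 23.1) shares 909 exon bases with UFSP2 (mean 347), which fell in the authors' deposited table. SLC16A3 (mean 263) shares 482 with CSNK1D (mean 2173), which rose, and PFKM (mean 2154) shares 628 with SENP1 (mean 794), which fell, in the authors' deposited table. SLC16A1 shares 175 with SLC16A1-AS1 (mean 56.7), which rose as well. The values of ANKRD37 and SLC16A3 are therefore uncertain. CA9 shares 643 exon bases with ARHGEF39 (mean 172) on the other strand, which fell, and CA9 itself had no reads.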

How the data were processed

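TruSeq RNA v2 libraries of 6 REH cultures were compared in 2 groups of 3, taken from the labels. Tools named in the submitters' processing notes are bcl2fastq 2.19, Trimmomatic for trimming, Bowtie2, Picard, featureCounts and DESeq2, with the build hg38; settings and the design formula were not given in the sources used here. Per the file headers, the authors' DESeq2 output holds, for every gene, a normalized signal (reads over size factors, averaged over all samples), the fold change as log2, and a p-value, also adjusted by Benjamini-Hochberg. Redoing that adjustment over the 12061 genes that have one differed from the deposited adjusted p by at most 2.87e-07. Such genes are called tested here, and those with an adjusted p under 0.05 called.

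No value per library was in the table, so no model was refitted and the planned use of the replicate numbers and of left-out libraries could not be run. Standard errors are the size of the fold change over the normal quantile of its p, and 95% intervals follow. On simulated data for 12061 genes, 200 of 200 genes with a tripled error were found, with 0 others. There, p was made from the planted error by the same formula, and errors otherwise varied little at a given mean. The simulation therefore checks the calculation only and not which genes of the real data are marked. Low means were solved for whole reads within 1e-09, giving 1 solution for 5152 of 5153 genes with a mean under 6. Gene positions and lengths came from GENCODE 29 (GRCh38), which matched 23701 names, and promoters from RefSeq (GRCh38.p14). Protein sequences were not used here.

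The 38 genes and the other lists were chosen with earlier results of this table known. Named genes were all members, STAT3, MYC, ARNT, VHL, HIF1AN and EGLN2, up to 3 called genes of smallest adjusted p per list, and called markers; others named were picked after their values were seen. Alternatives were other thresholds, a fold minimum, and other filters on the mean. Python 3.11.15, numpy 2.4.6, pandas 2.3.3, scipy 1.17.1, statsmodels 0.14.6 and matplotlib 3.10.9 were used.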

Additional observations from a re-analysis of the deposited data

How the results depend on the processing

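No paired analysis was possible because the table holds no value per library, and for the same reason no library could be left out. Leaving out the filter on means changed no call among the 30 tested members but took the second hypoxia list from 9 to 8 lower, oxygen sensing genes from 4 to 3 higher, further glycolysis genes from 3 to 2 lower and glycogen genes from 4 to 3 lower, and a mean of at least 50 changed none of the 27 that it left. At an adjusted p under 0.01, PKM and EGLN1 lost their calls, and under 0.1, HK2, PFKP and PFKFB3 gained one. Asking for at least 1.5-fold as well left 2091 of 5369 calls over all genes, 7 of 13 members lower, 0 higher and 1 of 5 glycolytic enzymes lower. Taking 1.5-fold with or without a p, an alternative chosen after seeing the data, gave 2233 genes in all, 0 members higher and 2 enzymes lower.

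The second hypoxia list fell from 9 lower to 5 at 0.01, 3 with 1.5-fold and 5 with 1.5-fold with or without a p. Glycogen genes went from 4 lower to 2 at 0.01, and oxygen sensing genes from 4 higher to 2. With 1.5-fold, whether or not a p was asked for, the oxygen sensing list had 0 lower and 1 higher, the pentose phosphate list 1 lower and 0 higher, the pyruvate list 1 lower and 1 higher, the further glycolysis list 0 lower, and the glycogen list 1 lower and 0 higher. Stricter thresholds and an added fold minimum can only remove calls, whereas the rule that ignores p also admits genes without one. Depth limits P4HA2, ANKRD37 and EPAS1, with means under 50, and reads of a gene at 0 in all libraries give no fold.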

Other observations

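Hypoxia-induced genes too rare to be tested could be read in whole reads. Of 8 such genes of the second hypoxia list with a mean under 6, 38 of 99 reads (38.4%) lay in the library that held most reads of genes with no p, against 23.9% of all recovered reads. The excess came from 2 genes, picked here after their values were seen. VLDLR, a lipoprotein receptor, had 12 of 12 reads in that library, and STC2, the secreted glycoprotein stanniocalcin 2, had 20 of 35. HMOX1, heme oxygenase 1, had 5 of 28 there and MET, the receptor for hepatocyte growth factor, 1 of 16. The share was not particular to hypoxia-induced genes. For 12 low genes of the further glycolysis list, 28 of 62 reads (45.2%) lay in that library, with 9 of 10 for HK3 and 2 of 17 for PGAM2. The signs of fold changes place that library in the scramble group, but shares of reads in a single library are no comparison between groups.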
